A study of Bos taurus with 40 samples.

Results

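The measurements described here are the changes in muscle messenger RNA that accompanied a return to free feeding in previously restricted Holstein-Friesian bulls, beyond the change that continuously fed bulls showed over the same interval. For every gene, the change from period 1 to period 2 within each restricted bull was set against the corresponding change within each control bull, and the difference between both changes was tested. The members were all 40 muscle libraries of the series, made from 20 bulls with 1 library per period. The restricted group held 10 bulls that received a limited allowance for 125 days, set for a gain of 0.6 kg per day, and then fed freely for 55 days. Their period 2 biopsy fell on day 15 of free feeding and their period 1 biopsy on day 120 of the restriction. The control group held 10 bulls fed freely for all 180 days and biopsied on the same days. All animals were male cattle of this dairy breed, and all ate one ration of 70% concentrate and 30% grass silage. The sources used here do not give the age of the animals or the name of the biopsied muscle.

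Cattle that return to free feeding after a period of feed restriction usually grow faster than animals fed freely throughout, which is called compensatory growth. Skeletal muscle is the main protein store of the body, and its mass follows the balance of protein synthesis and protein breakdown, both of which respond to nutrient supply and to insulin-like growth factor signalling. A biopsy also contains fat cells, connective tissue, vessels and blood, so in bulk tissue fewer cells of a type and less RNA per cell cannot be told apart. The control bulls aged, grew and were biopsied again over the same weeks, and their change is what the difference of paired changes takes away. The files name genes by Ensembl identifiers alone and the gene table at hand pairs 0 of the 24616 identifiers with a symbol, so genes are described by identifier, level and pattern, and the tissue was not checked against marker genes.

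Between 20.8 M and 33.0 M reads per library were counted in genes, with a median of 25.6 M. Libraries differed in the share of reads that fell outside annotated genes, given as a percentage of gene, outside-gene and ambiguous reads together. In 7 libraries this share was 10.0% to 11.2%, and in the other 33 it was 13.3% to 18.7%. The 7 were 1 library of restricted bulls in period 2, 2 of restricted bulls in period 1, 3 of control bulls in period 2 and 1 of control bulls in period 1. All 4 libraries with first library code number 6 and 3 of the 4 with number 5 were among them. What the code stands for is not stated in the labels.

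The 7 libraries bear on the difference of paired changes because they fell unevenly on the pairs. In restricted bulls the low library was the period 2 one in 1 pair and the period 1 one in 2 pairs, whereas in control bulls it was the period 2 one in 3 pairs and the period 1 one in 1 pair. A term for these libraries therefore stood in the fit beside a level for each bull. The term itself was past the threshold for 7341 of 12753 genes tested (57.6%), by edgeR's quasi-likelihood test at a Benjamini-Hochberg adjusted p under 0.05. The 7 libraries were set apart by a property read from these same data, so that count is a description. The change in the outside-gene share, period 2 minus period 1, ranged from -6.67 to 4.93 percentage points in restricted bulls, with a median of 0.0397. In control bulls it ranged from -7.85 to 5.48 points, with a median of -0.947. The mean changes were 0.0422 ± 2.93 points in restricted bulls and -1.31 ± 3.70 points in control bulls (SD, n = 10 each). Their difference of 1.35 points was not past 0.05 (two-sided permutation test with 100000 resamples, p = 0.376). Each SD is the spread between bulls and not the precision of this difference. The test covers the mean share and not how the 7 libraries fell on the pairs.

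**Figure D1:**
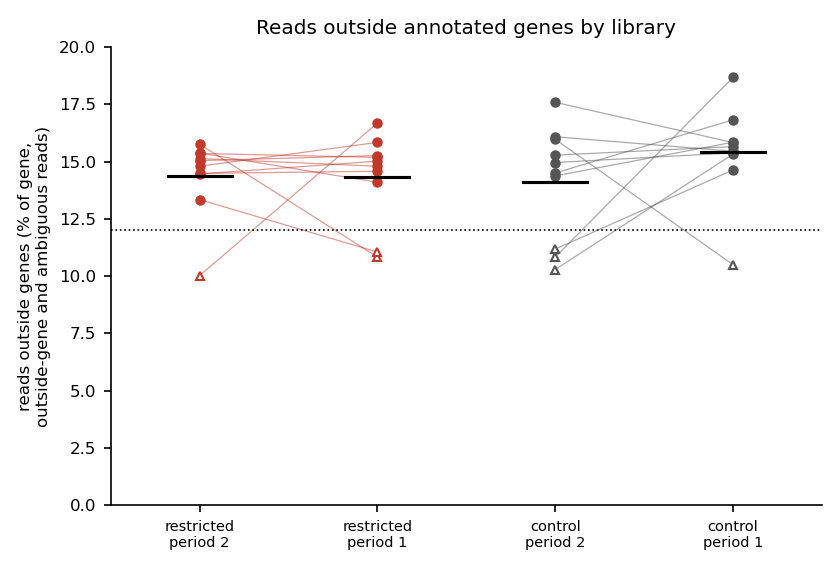
Reads outside annotated genes, in percent, for each of the 40 libraries by feeding group and period; thin lines join both libraries of a bull and black bars are group means. Open triangles mark the 7 libraries below the dotted line at 12%, which lie between 10.0% and 11.2%, while the filled points lie between 13.3% and 18.7%.

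The change over time differed between restricted and control bulls for 1692 of 12753 genes (13.3%). It was more positive in restricted bulls for 899 genes (7.05%) and more negative for 793 (6.22%), so 53.1% of the differences were positive. The median size of the 1692 differences was 0.53 log2 units, and the differences reached at least 1 log2 unit, a doubling or halving, in 130 positive and 106 negative genes. The test was edgeR's quasi-likelihood test, adjusted over all genes tested. At an unadjusted p under 0.05 the number was 3497 genes. The balance of directions was not settled, since with library totals as the only scaling 63.4% of the called genes were positive, and without the library term 464 were positive and 480 negative.

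How many genes passed depended on whether the fit allowed for the outside-gene share. Without the term the paired fit called 944 genes, and with the share as a continuous covariate in its place it called 1806, of which 1550 were among the 1692 in the same direction. The 13 bulls with no library among the 7 gave 613 genes, 570 of them among the 1692 in the same direction. That fit also had 7 fewer bulls, so the fewer animals and the 7 libraries cannot be told apart in its count. Leaving out restricted bull 10, which supplied the only period 2 library of restricted bulls among the 7, gave 1065 genes, whereas leaving out any of the other 19 bulls gave between 1377 and 1881. With the first library code number as a factor, which separates all 10 numbers and not the 7 libraries alone, 1032 genes passed.

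**Figure D2:**
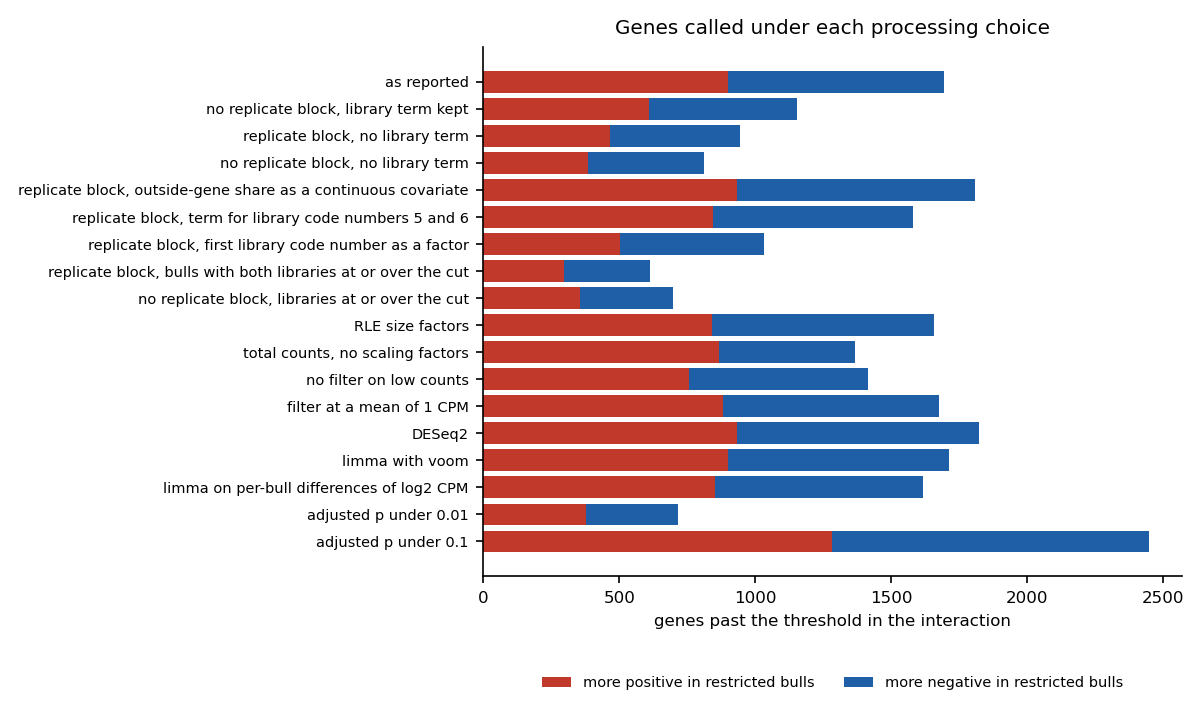
Number of genes past the threshold in the difference of paired changes under the reported fit (top bar) and 17 alternatives, split into genes more positive and more negative in restricted bulls. Among the fits drawn, the counts at the reported threshold run from 613 in the bulls with no library among the 7 to 1822 with DESeq2, and the count at an adjusted p under 0.1 is 2446; refits without 1 bull are not drawn.

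Taken alone in the same fit, the restricted bulls changed over time in 4571 genes (35.8%), with 2328 higher (18.3%) and 2243 lower (17.6%) in period 2. That count was 2581 without the library term, 2442 with neither the term nor a level for each bull, and 1951 with the code number as a factor. In control bulls 8 genes passed the threshold (0.0627%), 6 of them higher and 2 lower in period 2. An unadjusted p under 0.05 was found there for 2243 of the 12753 genes tested. Genes short of the threshold are not thereby shown to be unchanged. The median standard error per gene was 0.10 log2 units for the change in restricted bulls, 0.11 for that in control bulls and 0.15 for the difference between them. The difference was therefore measured less precisely than the change within either group. The median absolute change over all genes tested was 0.21 log2 units in restricted bulls and 0.12 in control bulls. The number of genes called in control bulls was also unstable. It was 33 without the level for each bull, 241 with DESeq2 and 0 with limma on the per-bull differences, where 2142 genes had an unadjusted p under 0.05. It moved by over 1.5 times on leaving out any control bull but bull 5, between 0 without control bull 7 and 55 without control bull 6, and on leaving out restricted bull 1, 2, 3, 6, 9 or 10, to 3 or 4 genes. The period 2 library of control bull 7 had the highest TMM scaling factor, 1.43 against 1.12 in the next library. The part of this factor in the counts was not tested.

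Because the 1692 genes were chosen by the difference, their changes in each group are given as a description. Genes with a positive difference had a median change of 0.48 log2 units in restricted bulls (quartiles 0.30 and 0.76) and of -0.08 in control bulls (quartiles -0.16 and 0.03). Genes with a negative difference had a median change of -0.46 in restricted bulls (quartiles -0.71 and -0.32) and of 0.06 in control bulls (quartiles -0.05 and 0.16). The larger of both changes was that of the restricted bulls in 820 of the 899 positive genes (91.2%) and 724 of the 793 negative genes (91.3%), and in 68.0% of all genes tested. The control change ran against the difference in 69.6% of the positive and 65.2% of the negative genes, beside 57.4% of all genes tested, so for most called genes subtracting the control change made the refeeding change larger. In 79 positive and 69 negative genes the control bulls had the larger change.

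The same difference can be read approximately as the gap between feeding groups on each day. The pairs of gaps below come from group means of log2 CPM with a library term removed. CPM are counts per M reads in the genes tested, scaled by edgeR's TMM factors. That library term was estimated without a level for each bull, so the gaps need not add up to the fitted difference. In genes with a positive difference the restricted bulls were above the control bulls by a median of 0.21 log2 units in period 2 and stood at -0.33 relative to them in period 1. In genes with a negative difference the median gap was -0.20 in period 2 and 0.31 in period 1. The gap was smaller in period 2 than in period 1 in 539 positive genes (60.0%) and 501 negative genes (63.2%), beside 54.3% of all genes. Restricted bulls moved from one side of the control mean to the other in 731 positive genes (81.3%) and 676 negative genes (85.2%), beside 44.5% of all genes. A large difference between both gaps is what the test selected, so these shares describe the called genes and support nothing further.

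**Figure D3:**
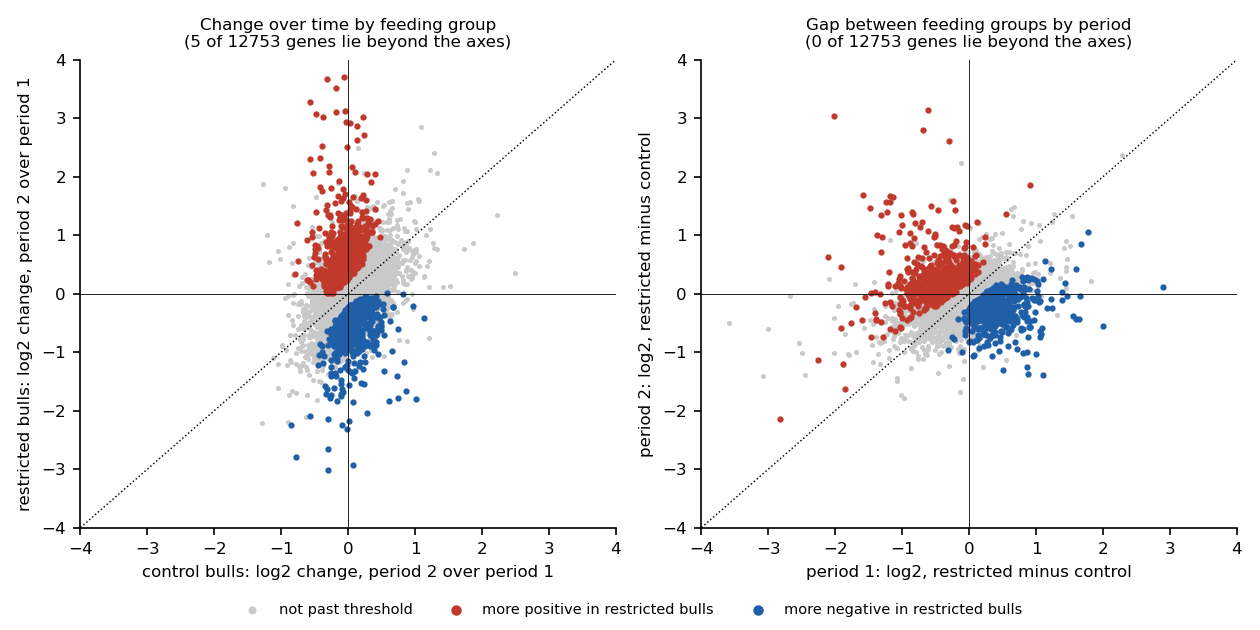
Left, log2 change from period 1 to period 2 in restricted bulls (vertical) against control bulls (horizontal) for the genes tested; right, log2 gap between restricted and control bulls in period 2 (vertical) against period 1 (horizontal). Coloured points are the 899 genes more positive and the 793 more negative in restricted bulls, and the dotted line marks equality; in the left panel they spread along the vertical axis and stay near 0 on the horizontal one.

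Small differences were called mainly in abundant genes and large ones in scarce genes. In 772 called genes the difference was under 0.5 log2 units, at a median level of 25.6 CPM and a median standard error of 0.10. In 44 called genes, 30 positive and 14 negative, it was over 2 log2 units, at a median level of 0.746 CPM and a median standard error of 0.53. In those 44 genes the median absolute change was 2.58 log2 units in restricted bulls and 0.30 in control bulls. In paired changes with the library term not removed, all 10 restricted bulls lay beyond the median control change in 39 of these 44 genes (88.6%), in the direction of the difference. The share was 39.5% of the called genes under 0.5 log2 units and 11.2% of all genes tested. Genes chosen for a large difference favour such a count. With the genes divided into 4 equal classes by mean level, 605 of the 3188 most abundant genes (19.0%) were called, and 210 of the 3189 scarcest (6.59%). The standard error of the difference had a median of 0.11 log2 units in the most abundant class and of 0.32 in the scarcest.

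The called genes held a modest part of the reads counted in genes, which are not scaled for transcript length. Genes with a positive difference took 5.30% ± 0.423 of gene counts in restricted bulls in period 2 and 3.77% ± 0.189 in restricted bulls in period 1, against 4.48% ± 0.461 in control bulls in period 2 and 4.69% ± 0.297 in control bulls in period 1 (SD, n = 10 each). Genes with a negative difference took 5.28% ± 0.509 in restricted bulls in period 2 and 7.43% ± 0.428 in restricted bulls in period 1, against 6.34% ± 0.218 in control bulls in period 2 and 6.02% ± 0.366 in control bulls in period 1. These sums follow from the choice of genes and were not tested.

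Among the positive differences the lowest p belonged to ENSBTAG00000012036, a gene of low abundance with 33 to 496 reads per library. In restricted bulls its level ranged from 3.87 to 10.2 CPM in period 2, with a median of 6.21, and from 1.30 to 7.97 CPM in period 1, with a median of 2.21. In control bulls it ranged from 2.17 to 12.9 CPM in period 2, with a median of 7.04, and from 4.91 to 16.9 CPM in period 1, with a median of 7.22. Late in the restriction 9 of 10 restricted bulls lay below the lowest control bull, and on day 15 of free feeding the groups overlapped. The level was higher in period 2 in 10 of 10 restricted bulls and in 5 of 10 control bulls. Paired changes of the named genes are given with the library term not removed. Here they ran from 0.35 to 1.73 log2 CPM in restricted bulls and from -1.75 to 0.91 in control bulls. On that scale the groups overlapped, and 8 of 10 restricted bulls lay beyond every control bull. The lowest restricted change (bull 9) and the highest control change (bull 8) each involved 1 of the 7 libraries. With the term in the fit, the fitted log2 change was 1.35 ± 0.12 in restricted bulls (SE, edgeR adjusted p = 6.92e-08) and -0.30 ± 0.12 in control bulls (edgeR adjusted p = 0.203). Their difference was 1.65 ± 0.18 log2 units, or 3.14-fold (edgeR adjusted p = 6.38e-06). This gene was also higher in the 7 libraries, with a library term of 0.79 log2 units (edgeR adjusted p = 8.49e-05). Restricted bull 9 had the highest period 1 level of its group, 7.97 CPM, in one of the 7 libraries.

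ENSBTAG00000022989, with 53 to 393 reads per library, was also low in restricted bulls in period 1. In restricted bulls it ranged from 4.88 to 14.6 CPM in period 2, with a median of 9.23, and from 1.92 to 5.54 CPM in period 1, with a median of 3.76. In control bulls it ranged from 5.05 to 12.8 CPM in period 2, with a median of 7.53, and from 4.94 to 12.5 CPM in period 1, with a median of 7.11. In period 1, 8 of 10 restricted bulls lay below every control bull, and in period 2 the ranges overlapped. The paired change ran from 0.89 to 1.81 log2 CPM in restricted bulls and from -0.50 to 0.64 in control bulls, so the groups did not overlap in their changes. The fitted change was 1.38 ± 0.10 in restricted bulls (edgeR adjusted p = 4.25e-09) and 0.03 ± 0.10 in control bulls (edgeR adjusted p = 0.901). Their difference was 1.35 ± 0.15 (edgeR adjusted p = 6.38e-06).

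The lowest p among the negative differences belonged to ENSBTAG00000019327, an abundant transcript with 29108 to 119453 reads per library. It ranged from 1246 to 2389 CPM in restricted bulls in period 2, with a median of 1536, and from 2675 to 5450 CPM in restricted bulls in period 1, with a median of 3425. In control bulls it ranged from 1146 to 2466 CPM in period 2, with a median of 1514, and from 1032 to 1958 CPM in period 1, with a median of 1392. All 10 restricted bulls lay above every control bull in period 1. On day 15 of free feeding 0 of 10 did, and the medians of the groups were close. Its level fell in 10 of 10 restricted bulls, with paired changes of -1.55 to -0.77 log2 CPM, while in control bulls the change ran from -0.28 to 0.83. The fitted change was -1.17 ± 0.10 in restricted bulls (edgeR adjusted p = 2.30e-08) and 0.19 ± 0.10 in control bulls (edgeR adjusted p = 0.336). The difference was -1.35 ± 0.14 (edgeR adjusted p = 6.38e-06), which on the linear scale makes the fold change in restricted bulls 0.391 times that in control bulls.

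ENSBTAG00000000746, with 1413 to 4849 reads per library, had another shape. It ranged from 60.1 to 81.7 CPM in restricted bulls in period 2, with a median of 66.4, and from 110.9 to 177.1 CPM in restricted bulls in period 1, with a median of 126.4. In control bulls it ranged from 66.0 to 159.7 CPM in period 2, with a median of 127.0, and from 79.2 to 158.8 CPM in period 1, with a median of 134.3. The groups overlapped widely in period 1, where 2 restricted bulls lay above every control bull. In period 2, 5 of 10 restricted bulls lay below every control bull, and their SD was 6.96 CPM against 31.4 CPM in control bulls. The paired change was -1.14 to -0.73 log2 CPM in restricted bulls and -0.56 to 0.12 in control bulls. The fitted change was -0.998 ± 0.06 in restricted bulls (edgeR adjusted p = 6.15e-10) and -0.14 ± 0.07 in control bulls (edgeR adjusted p = 0.267), with a difference of -0.86 ± 0.09 (edgeR adjusted p = 6.38e-06).

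Each of these 4 genes stayed past the threshold in the same direction on leaving out any of the 20 bulls and under the 15 other fits. They were chosen for the lowest p in these same data, so this was largely fixed by the choice. For ENSBTAG00000012036 the log2 difference in these refits lay between 1.29 and 1.76 with edgeR, DESeq2 and limma adjusted p up to 0.0357. For ENSBTAG00000019327 it lay between -1.51 and -1.29, with adjusted p up to 0.00117 by the same tools.

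**Figure D4:**
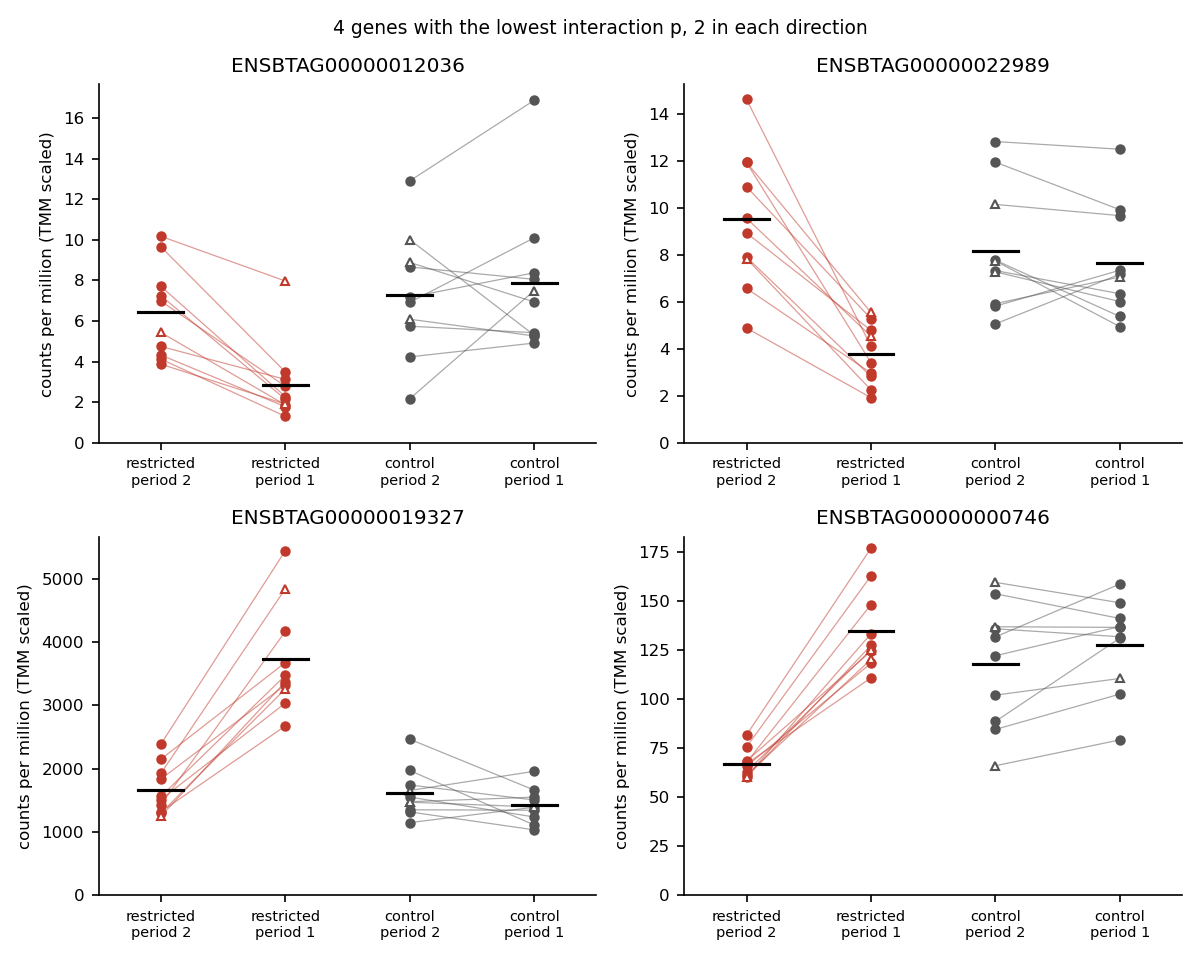
Level in CPM of the 4 named genes in every library, by feeding group and period; thin lines join both libraries of a bull, black bars are group means (n = 10) and open triangles mark the 7 libraries with few reads outside genes. For ENSBTAG00000012036 and ENSBTAG00000022989 the period 1 points of restricted bulls lie low, for ENSBTAG00000019327 they lie above every control point, and for ENSBTAG00000000746 the period 2 points of restricted bulls lie low and close together.

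How evenly individual bulls showed the change was measured by leaving each bull out, calling genes from the other 19, and then measuring the bull that had not been used. The quantity is the bull's own log2 change minus the fitted control change, with the library term removed, taken in the direction called without it, as a median over the called genes. In restricted bulls this median lay between 0.24 and 0.65 log2 units, with a middle value of 0.51, beside fitted sizes of 0.54 to 0.58 in the other bulls. In control bulls it lay between -0.07 and 0.17, with a middle value of 0.10. All 10 restricted bulls lay above every control bull. Restricted bull 7 was lowest of its group at 0.24, and the next lowest was restricted bull 2 at 0.40. The share of called genes that moved in the called direction was 80.8% to 97.6% in restricted bulls, with a median of 94.1%, and 42.7% to 73.5% in control bulls, with a median of 60.2%. With no library term removed, the medians spanned 0.24 to 0.73 in restricted bulls and -0.16 to 0.34 in control bulls, so the ranges overlapped. Control bull 6, whose period 1 library is one of the 7, then stood at 0.34. The fitted control change came from the same bulls that were used to call the genes. That choice favours values above 0 in a left-out bull of either group, and its part was not tested. The values themselves were not tested either, since any pair of refits shares most of its animals.

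**Figure D5:**
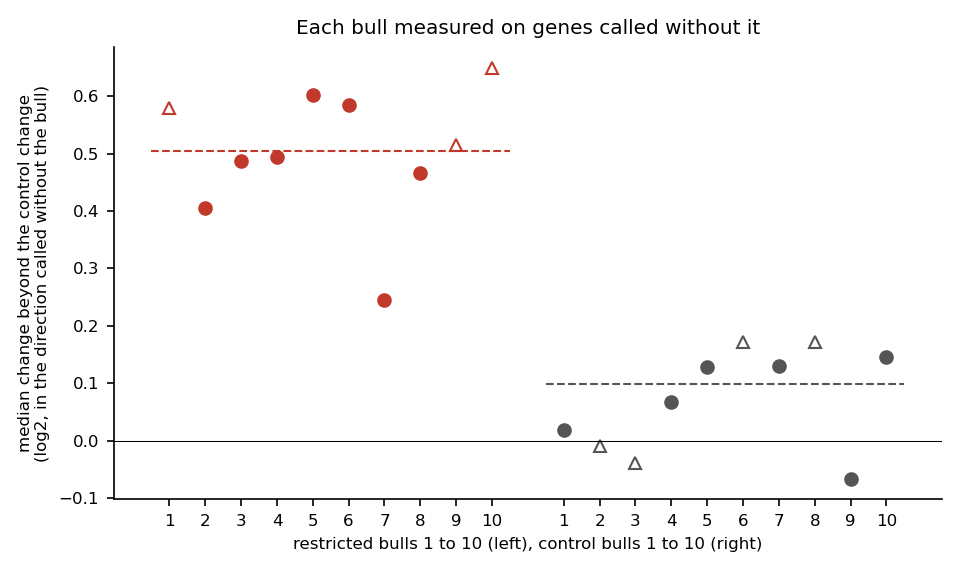
Median log2 change beyond the control change for each bull, over the genes called from the other 19 bulls and in the direction called there, with the library term removed; open triangles are bulls with 1 of the 7 libraries and dashed lines are group medians. The restricted bulls lie between 0.24 and 0.65 and the control bulls between -0.07 and 0.17.

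Bulls differed in their change over time by about as much in both groups. With the library term removed, the SD of the paired change between bulls had a median over genes of 0.30 log2 units in restricted bulls and 0.32 in control bulls, and it was the larger in restricted bulls for 39.9% of genes. With the library term not removed, the paired changes of the groups did not overlap at all in 49 of 12753 genes (0.384%). All 49 were called, 20 positive and 29 negative. Complete separation of the groups favours a call, so this is a description.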

How the data were processed

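The authors deposited whole-number read counts per gene for each library, in the layout HTSeq writes, with 24616 genes. CASAVA 1.4, TopHat, HTSeq, edgeR and the assembly UMD3.1 are listed in the submitters' processing notes, and the sources used here give neither their roles and settings nor the strand handling. A second deposited file per library was normalised separately in each period and was not used. Per the labels' protocols, libraries were single-end TruSeq libraries from Trizol-extracted RNA.

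The 92 spike-in entries held 0 counts. Reads outside genes (10.0% to 18.7%) and ambiguous reads (0.584% to 1.40%) entered neither library sizes nor tests. No pair of libraries within a group was alike to within counting noise (smallest chi-square per gene 22.8). Depth was 20.8 M to 33.0 M counts, and reads carry no molecular identifiers.

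Counts were fitted with edgeR 4.0.16 in R 4.3.3 (TMM, filterByExpr with minimum count 10 and total 15, robust quasi-likelihood) with a level per bull, a term for libraries under 12% outside genes and a period change per feeding group, leaving 17 residual degrees of freedom. CPM and log2 CPM were TMM scaled, log2 CPM used a prior count of 2, and standard errors came from the F statistics. P-values rest on the spread of the change over time between these bulls. Replicate numbers in the titles were read as pairing the libraries of one bull. The second library code number also differed by one fixed amount between both libraries of every title number. Correlations across genes were taken with group means and the term removed. Libraries of one number correlated at 0.19 to 0.38 in restricted and 0.11 to 0.43 in control bulls, above 0.1 in 10 of 10 pairs each. Libraries of other numbers had medians of -0.03 and -0.02 and reached 0.18 and 0.34. A library was closest to its own number in 10 of 10 restricted bulls in both periods, and in 8 and 5 of 10 control bulls in periods 2 and 1. The labels' growth protocol gives 10 bulls per feeding group and the treatment protocol 20; the titles number 10 in each, and these were analysed. Fits were tested on simulated data. Alternatives were DESeq2 1.42.0, limma 3.58.1, other scalings, filters, terms and thresholds, no block, and each bull left out; the permutation test used SciPy 1.17.1 in Python 3.11.15.

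The comparison, the 12% limit and the lists were chosen with earlier results of these data known. Named genes are those of lowest p, 2 in each direction; the parts of the rule and all gene and marker lists that need symbols could not be applied, because the RefSeq table (ARS-UCD2.0) pairs no identifier of the files.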

Additional observations from a re-analysis of the deposited data

Results flagged for a closer look

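Restricted and control bulls differed in their change over time for 1692 genes and, by the same edgeR test, for the 4 named genes. Their log2 differences were 1.65 for ENSBTAG00000012036, 1.35 for ENSBTAG00000022989, -1.35 for ENSBTAG00000019327 and -0.86 for ENSBTAG00000000746.

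Among 36 sets of 10 values examined, 6 held a library far from the other 9. The limit marks about 1 set in 20 by chance only where values are normally distributed. The sets are not independent and the outside-gene share was used to pick the 7, so that rate does not apply directly. Restricted bull 10 in period 2 had 10.0% of reads outside genes, against 13.3% in the next lowest of its group. Control bull 6 in period 1 had 10.5% outside genes and 0.584% ambiguous reads, against 14.6% and 0.961% in the next lowest. Both libraries are among the 7. Control bull 8 in period 2 was sequenced deepest of its group, with 32.6 M gene counts against 26.7 M in the next. That library is among the 7 as well. ENSBTAG00000012036 stood at 7.97 CPM in restricted bull 9 in period 1, against 3.49 CPM in the next highest, and at 16.9 CPM in control bull 1 in period 1, against 10.1 CPM in the next highest. Restricted bull 9 in period 1 is also among the 7 libraries, control bull 1 is not, and the part of the library share in these values was not tested.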

How the results depend on the processing

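In the difference of paired changes, 1692 genes (899 positive, 793 negative) became 944 (464, 480) with the replicate block but no library term, 812 (385, 427) with neither, 1032 (503, 529) with the code number entered as a factor, 613 (296, 317) in the bulls with both libraries at or over the limit, 698 (357, 341) in the libraries at or over it without the block, 716 (377, 339) at an adjusted p under 0.01, and 1365 (866, 499) with total counts. Without the block but with the term it was 1152, of which 1092 were shared in direction. Leaving out 1 bull gave 1065 to 1881 genes (554 to 923 positive, 511 to 958 negative); the lowest is without restricted bull 10. The restricted change, 4571 genes, became 2581 and 2442 without the term (with and without the block), 1951 with the code factor and 2922 at 0.01.

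The control change, 8 genes in edgeR, became 33 without the block, 3 without the term, 5 with neither, 3 with the share as a continuous covariate, 204 with a term for code numbers 5 and 6, 0 with the code factor (729 at an unadjusted p under 0.05), 49 and 90 in the bulls and the libraries at or over the limit, 3 with RLE, 5 with total counts, 4 without a filter, 241 with DESeq2, 63 with limma and voom, 0 with limma on per-bull differences (2142 unadjusted), and 3 and 221 at 0.01 and 0.1. Leaving out 1 bull gave 0 (without control bull 7; 1427 unadjusted) to 55.

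The 4 named genes, chosen for their lowest p, kept their direction and call in 15 other fits and 20 refits without 1 bull each. First code numbers hold 4 libraries each and 1 bull has both libraries in one number, so no value within a code number was obtained; all 4 libraries of number 1 are of control bulls in period 1. Alternatives for gene list counts were not run, since no identifier was paired with a symbol. The outside-gene share had no alternative. Depth and animal number limit the scarcest genes most, with a median standard error of 0.32 log2 units in the lowest of 4 classes.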

Other observations

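Leaving out the library term moved the difference of paired changes by a median absolute 0.12 log2 units over the genes tested, beside a median absolute difference of 0.20. In a linear fit this shift is the gene's own library term times the imbalance of the low libraries between the pairs, so it follows from the design and is no separate finding. The mean number of low libraries in period 2 minus period 1 per pair was -0.1 in restricted bulls and 0.2 in control bulls.

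A term for library code numbers 5 and 6 in place of the share called 1579 genes in the difference of paired changes, 845 positive and 734 negative. These numbers were picked because 7 of their 8 libraries are the 7 with few reads outside genes. The library term is therefore nearly the reported one by construction, and the 1579 genes do not support the reported count independently. The remaining library of these numbers was that of control bull 2 in period 1, with 18.7% of reads outside genes. Even so, the control change was 204 genes in this fit against 8 as reported.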
